A study of Mus musculus with 8 samples.

Results

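The genes of 10 SWI/SNF subunits that are not restricted to the PBRM1-containing form of the complex were examined as targets in peak lists of PBRM1 and BRG1. They are *Arid1a*, *Arid1b*, *Dpf1*, *Dpf2*, *Dpf3*, *Ss18*, *Brd9*, *Bcl7a*, *Bcl7b* and *Bcl7c*, 10 of the 21951 protein-coding genes that the GENCODE M21 annotation of GRCm38 (mm10) gives with a transcription start site (TSS). They were chosen by name, and their peaks were those that reached within 2000 bp of any annotated TSS of the gene, called promoter peaks here, and those whose summit lay inside the gene. The lists come from chromatin immunocleavage sequencing (ChIC-Seq), in which an antibody brings a protein A–micrococcal nuclease fusion to fixed chromatin and the DNA released by cutting is sequenced. The antibodies were against PBRM1 (BAF180) and against BRG1, the ATPase whose gene is *Smarca4*, and each was used on 3 replicates of mouse uterine stromal cells in primary culture (mUSCs).

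All libraries were made from WT cells, so no library carried a deletion or a treatment. According to the labels, the females were 8 to 12 weeks old and on D4, the uterine horns of 5 to 10 pseudopregnant mice gave the cells, and 50000 cells were fixed for 5 minutes per library. The labels do not say whether the 3 replicates of an antibody came from separate pools of mice, so the spread between them may be partly technical. A peak marks where an antibody released fragments and does not measure expression of the gene. The 2 IgG libraries were not analysed here and the peak calls name no control file, so a peak stands out only from the regions around it in the same library.

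SWI/SNF complexes use the energy of ATP to move nucleosomes and are assembled in 3 forms around BRG1 or its paralog BRM. Canonical BAF carries ARID1A or ARID1B together with a DPF protein, noncanonical BAF carries BRD9, and SS18 belongs to both of these. PBAF carries PBRM1 with ARID2 and BRD7 in their place. The BCL7 proteins sit beside the ATPase and are found in all of the forms. The genes described here therefore encode the subunits that stand in for PBRM1 or accompany it around BRG1, and the peaks show where the PBAF subunit and the shared ATPase lay at these genes.

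The sequences that the results turn on fall into promoters and sites inside the genes, and all are on GRCm38. The *Dpf1* and *Dpf3* stretches are shown because at these genes every BRG1 replicate ranked the strongest promoter peak above every PBRM1 replicate, also among peak sets of equal size. At *Dpf1* that peak lay at internal starts, outside the printed stretch, in all 3 PBRM1 replicates and in BRG1 replicate 1. The *Arid1a* stretch is shown because the strongest pooled promoter peak of the gene lay at the more distal of its starts. Each stretch is the part of the RefSeq promoter entry (GRCm38.p6) that precedes every annotated exon, and the pooled BRG1 summit of the strongest promoter peak lies inside it. They were read from chr7:29303755-29303950 (plus strand), chr12:83487737-83487986 (minus strand) and chr4:133756770-133757019 (minus strand). Capitals mark the GC box (GGGCGG), the CCAAT box (CCAAT) and, in *Arid1a*, a part of the CTCF site (AGGGGGC), on either strand.
Dpf1 promoter: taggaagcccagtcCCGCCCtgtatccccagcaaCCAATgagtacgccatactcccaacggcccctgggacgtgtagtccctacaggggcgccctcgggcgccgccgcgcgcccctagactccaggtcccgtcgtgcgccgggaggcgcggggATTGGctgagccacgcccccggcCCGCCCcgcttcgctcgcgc
Dpf3 promoter: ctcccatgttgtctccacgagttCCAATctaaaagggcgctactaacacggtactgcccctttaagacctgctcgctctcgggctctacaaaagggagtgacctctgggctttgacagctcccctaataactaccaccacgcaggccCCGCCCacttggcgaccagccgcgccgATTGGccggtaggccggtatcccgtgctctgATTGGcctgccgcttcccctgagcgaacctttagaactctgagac
Arid1a promoter: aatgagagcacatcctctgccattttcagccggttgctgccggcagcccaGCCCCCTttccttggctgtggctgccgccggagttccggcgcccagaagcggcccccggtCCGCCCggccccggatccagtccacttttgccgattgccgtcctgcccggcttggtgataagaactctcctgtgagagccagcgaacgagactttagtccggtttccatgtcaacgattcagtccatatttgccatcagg

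The other sequences are 201-bp windows around the pooled BRG1 summits of the sites inside the genes, away from their own TSSs, that were found in all 6 replicates. They are given in the direction of the gene. The *Arid1a* window is chr4:133729780-133729980 (minus strand, intron 1). The 3 *Arid1b* windows are chr17:5058358-5058558 (intron 2), chr17:5150738-5150938 (intron 4) and chr17:5189753-5189953 (intron 4), all on the plus strand. The window inside the *Bcl7c* locus is chr7:127691709-127691909 (minus strand), 17124 bp downstream of the *Bcl7c* TSS at its summit. That site covers the TSS of another gene, *Gm39090*, and is not among the gene-body peaks counted below. Capitals mark CG dinucleotides.
Arid1a intron 1: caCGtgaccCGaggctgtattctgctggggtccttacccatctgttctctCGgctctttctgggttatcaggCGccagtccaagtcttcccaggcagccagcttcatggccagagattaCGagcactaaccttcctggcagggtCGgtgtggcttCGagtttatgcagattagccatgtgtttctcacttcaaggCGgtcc
Arid1b intron 2: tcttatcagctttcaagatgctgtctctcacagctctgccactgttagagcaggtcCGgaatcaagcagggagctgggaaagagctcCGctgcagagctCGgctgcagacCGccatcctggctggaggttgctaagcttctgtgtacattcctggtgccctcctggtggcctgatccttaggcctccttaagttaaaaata
Arid1b intron 4, first site: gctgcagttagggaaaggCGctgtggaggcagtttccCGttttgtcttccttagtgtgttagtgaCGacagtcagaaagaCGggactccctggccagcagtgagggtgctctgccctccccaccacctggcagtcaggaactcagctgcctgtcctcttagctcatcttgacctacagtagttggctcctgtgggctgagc
Arid1b intron 4, second site: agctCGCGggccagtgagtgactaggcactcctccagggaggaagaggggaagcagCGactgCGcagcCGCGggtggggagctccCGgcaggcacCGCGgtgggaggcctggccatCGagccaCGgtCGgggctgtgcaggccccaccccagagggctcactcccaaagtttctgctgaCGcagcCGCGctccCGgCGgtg
Bcl7c locus: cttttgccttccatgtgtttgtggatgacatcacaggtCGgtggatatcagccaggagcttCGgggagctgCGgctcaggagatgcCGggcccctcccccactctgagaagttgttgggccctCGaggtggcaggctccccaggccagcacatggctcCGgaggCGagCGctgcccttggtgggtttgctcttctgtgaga

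The PBRM1 replicates had between 8868777 and 16505239 fragments and 21912 to 26363 peaks, and the BRG1 replicates between 11506964 and 14595089 fragments and 36656 to 40610 peaks. PBRM1 replicate 3 had the most fragments of all replicates and the fewest peaks. The pooled lists, called on the fragments of the 3 replicates together, held 55119 PBRM1 and 82669 BRG1 peaks. Every peak has a fold enrichment, the authors' MACS ratio of the pileup at the summit to the local background, and a −log10 q. Since lists of different length are not on one scale, peaks were also ranked by −log10 q within their own list and given as a percentile, where 100 is the strongest. As a check of the cells, the promoters of all 8 stromal marker genes (*Vim*, *Pdgfra*, *Pdgfrb*, *Col1a1*, *Hand2*, *Hoxa10*, *Hoxa11* and *Pgr*) held a pooled peak of both antibodies, and 6 of them in all 6 replicates. The same held in the pooled lists for all 6 epithelial markers (*Krt7*, *Krt8*, *Krt18*, *Cdh1*, *Epcam* and *Foxa2*), of which only *Krt7* had a peak in all 6 replicates. Pooled promoter peaks did not separate the marker lists, and the part of any epithelial cells in the peaks was not tested.

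All 10 BAF subunit genes had a promoter peak of PBRM1 and of BRG1 in the pooled lists. Over all protein-coding genes, 68.7% had a pooled PBRM1 promoter peak and 72.1% a pooled BRG1 promoter peak. In the single replicates, 9 of the 10 genes were found in all 3 PBRM1 lists and 10 of 10 in all 3 BRG1 lists, beside 52.2% and 61.4% of all genes. Thus 9 of 10 had a promoter peak in all 6 replicates, where 51.9% of all genes did. The exception was *Arid1b*, which had no promoter peak in PBRM1 replicate 3, and without that list the count was 10 of 10. The number of genes with a promoter peak was 10, 10 and 9 in the PBRM1 lists and 10 in each BRG1 list, a mean difference of -0.333 (exact permutation test, two-sided p = 1). With 3 lists against 3 this test cannot give a p below 0.1.

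Promoter peaks were also counted at the other SWI/SNF genes. All 11 shared core genes (*Smarca4*, *Smarca2*, *Smarcb1*, *Smarcc1*, *Smarcc2*, *Smarcd1*, *Smarcd2*, *Smarcd3*, *Smarce1*, *Actl6a* and *Actl6b*) and all 3 further BAF-class genes (*Bicra*, *Bicral* and *Ss18l1*) had a promoter peak in all 6 replicates. Of the 4 PBAF-specific genes, *Pbrm1* and *Arid2* did, whereas *Brd7* and *Phf10* were each found in 2 of 3 PBRM1 and 3 of 3 BRG1 lists. In the pooled lists the median percentile of the strongest promoter peak was 90.0 with PBRM1 and 92.5 with BRG1 for the 10 BAF genes. It was 90.1 and 94.7 for the core genes, 88.7 and 91.3 for the PBAF-specific genes, 78.4 and 88.5 for the further BAF-class genes, and 86.4 and 90.5 for all protein-coding genes with a peak. These lists differ in size, and no difference between them was tested.

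The promoters differed in the number of their peaks. *Dpf2*, *Ss18*, *Bcl7b* and *Bcl7c* had 1 pooled promoter peak with each antibody, and *Dpf3* and *Brd9* had 1 site with a peak in both lists and further ones in 1 of them. *Arid1a*, *Arid1b*, *Dpf1* and *Bcl7a* had 2 to 4 separate peaks within 2000 bp of their TSSs. Of the 22 promoter sites in the union of the pooled lists, 18 had a peak of both antibodies, 3 of BRG1 alone and 1 of PBRM1 alone. In the replicates 10 of the 22 sites were found in all 6 lists, and the 4 sites with 1 antibody alone were found in at most 1.

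**Figure D1:**
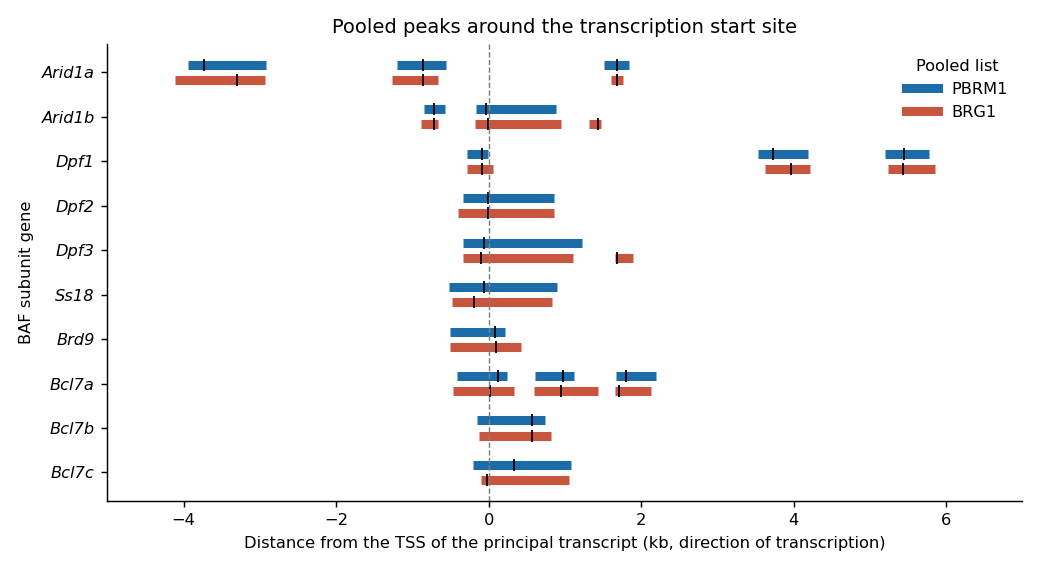
Pooled PBRM1 (blue) and BRG1 (red) peaks from 5 kb before to 7 kb after the TSS of the principal transcript of each gene, in the direction of transcription, with a black tick at each summit and the dashed line at the TSS. *Dpf2*, *Dpf3*, *Ss18*, *Brd9*, *Bcl7b* and *Bcl7c* carry a broad peak over the start, whereas the peaks of *Arid1a*, *Dpf1* and *Bcl7a* are spread over several kb.

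Among the genes of canonical BAF, the DPF family, whose proteins read acetylated histone tails through paired PHD fingers, had the highest pooled fold enrichment of the 10 genes with PBRM1, at *Dpf2*, and with BRG1, at *Dpf3*, and lower values at *Dpf1*. *Dpf2*, the broadly expressed member of the family, spans chr19:5896516-5913010 on the minus strand. At its TSS the PBRM1 fold enrichment was 13.0, 9.84 and 9.06 in the 3 replicates. The BRG1 fold enrichment there was 10.8, 15.1 and 14.1. The replicates of the 2 antibodies overlapped. The summit moved by no more than 2 bp among the PBRM1 lists and 19 bp among the BRG1 lists, and the pooled summits lay 7 bp apart. Over the 11388 genes with a promoter peak in all 6 replicates, the pooled *Dpf2* peak exceeded 95.8% of the genes in −log10 q with PBRM1 and 94.3% with BRG1. The antisense gene *Gm42067* starts inside the same peak.

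*Dpf3*, the member of the family known from muscle and heart, spans chr12:83213745-83487716 on the minus strand. At its TSS the PBRM1 fold enrichment was 8.73, 7.95 and 8.12 in the 3 replicates. With BRG1 it was 12.3, 14.0 and 14.2, so every BRG1 value was above every PBRM1 value. The means were 8.27 ± 0.412 (SD, n = 3) and 13.5 ± 1.06 (SD, n = 3). Within its own list the peak stood at percentile 84.1, 87.2 and 94.5 with PBRM1 and at 98.6, 99.2 and 99.4 with BRG1. The difference of the means was -10.5 percentile points (exact permutation test, two-sided p = 0.1, the smallest that it can give). Among the 11388 genes, the pooled *Dpf3* peak exceeded 97.3% with BRG1 and 78.6% with PBRM1. The BRG1 summits of the 3 replicates lay within 4 bp of each other, and the pooled BRG1 summit was 106 bp before the TSS, inside the sequence printed above.

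*Dpf1*, the member of the family best known from neurons, spans chr7:29303951-29318243 on the plus strand and has internal TSSs. Its 4 pooled promoter sites lay at the first TSS, at 3964 and 5431 bp inside the gene near internal TSSs, and at 13198 bp in exon 12. At the first TSS a BRG1 peak was found in all 3 replicates, with a fold enrichment of 5.54, 7.11 and 7.20. A PBRM1 peak was found there only in replicate 3, with a fold enrichment of 3.91, and in the pooled list, with 5.19. The strongest *Dpf1* peak lay at the internal starts in all 3 PBRM1 replicates and in BRG1 replicate 1. The site 5431 bp inside the gene was the 1 promoter site of *Dpf1* with a peak in all 6 replicates. At that site the percentiles were 44.5, 63.0 and 44.0 with PBRM1 and 56.7, 50.8 and 74.6 with BRG1, and the antibodies overlapped. Over all TSSs of *Dpf1*, the strongest peak stood at percentile 47.9, 63.0 and 44.0 with PBRM1 and 77.8, 83.4 and 81.4 with BRG1. These values, which come from different starts of the gene, did not overlap between the antibodies. Their difference of -29.2 percentile points was the largest among the 9 genes with a peak in all 6 replicates (exact permutation test, two-sided p = 0.1). Counted at the principal TSS alone, 9 genes had a promoter peak in each PBRM1 list and 10 in each BRG1 list, because *Dpf1* was absent in PBRM1 replicates 1 and 2 and *Arid1b* in replicate 3 (exact permutation test, two-sided p = 0.1).

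Of the 10 genes, 8 had an entry in the RefSeq promoter table, which gives 250 bases before and 50 after each start, and *Ss18* and *Bcl7a* had none. The 8 genes had 10 entries, and the percentages of all promoters given here are shares of entries, not of genes. Within these windows the CCAAT box (CCAAT), the site of NF-Y, on either strand was found in *Dpf1*, *Dpf2* and *Dpf3* and in no other of the 8 genes. That is 3 of the 10 entries, a share near the 37.4% of all 32851 promoters that hold it. In *Dpf3* it starts 227, 76 and 45 bases before the RefSeq start, in *Dpf1* 216 and 97, and in *Dpf2* 101, in a stretch that other transcripts include and that is not printed. The GC box was found in 7 of the 8 genes, all except *Dpf2*, and in 9 of the 10 entries, beside 35.7% of all promoters. In *Arid1a* it occurs 7 times before the start at 133753985, overlapping in part. The ETS site (CCGGAAG) was found in *Brd9* alone, beside 8.86% of all promoters, and so was the TEAD site (GGAATG), beside 14.7%. The E-box (CACGTG) was found in *Bcl7b* and *Bcl7c*, beside 7.15%, and AGGGGGC in *Arid1a*, beside 10.6%. The TATA box (TATAAA), the AP-1 site (TGACTCA), the CRE (TGACGTCA), the steroid receptor half-site (TGTTCT) and the GATA site (AGATAA) were in none of these windows, beside 13.6%, 5.20%, 1.79%, 19.0% and 11.2% of all promoters. A letter match is not a measured binding site.

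The ARID1 genes, whose products are the alternative large DNA-binding subunits of canonical BAF, had several promoter peaks each and intronic sites that were found in all 6 replicates. *Arid1a* spans chr4:133679008-133756769 on the minus strand. At the strongest promoter peak of each list, which was not at the same site in all of them, the PBRM1 fold enrichment was 5.75, 5.73 and 3.33 in the 3 replicates. The BRG1 fold enrichment was 4.42, 4.23 and 5.78, and the antibodies overlapped. Its strongest pooled BRG1 promoter peak lay over the distal start, 3299 bp before the TSS of the principal transcript. A further promoter peak lay 860 bp before that TSS. Both were found in all 6 replicates, and in PBRM1 replicate 3 and BRG1 replicate 1 the second of them was the stronger. Another peak, 1685 bp inside the gene, was found in PBRM1 replicates 1 and 2 alone and in both pooled lists.

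*Arid1b* spans chr17:4994332-5347656 on the plus strand and is the longest of the 10 genes, with 353 kb. The strongest promoter peak of each list had a PBRM1 fold enrichment of 5.17 and 3.72 in replicates 1 and 2, and replicate 3 had no promoter peak. With BRG1 the values were 4.38, 4.11 and 4.21. The summits differed in position, and with PBRM1 they lay 720 bp before and 674 bp after the principal TSS. With BRG1 they lay 30 bp before, 664 bp after and 77 bp before it. Against the 11388 genes with a promoter peak in all 6 replicates, the pooled *Arid1b* peak exceeded 3.05% with PBRM1 and 1.05% with BRG1. *Arid1b* is not one of these genes, which were picked for a peak in every replicate, so a low rank among them is partly built in. Among all peaks of its pooled list the *Arid1b* promoter peak stood at percentile 70.9 with PBRM1 and 74.3 with BRG1. The bases around the principal TSSs of *Arid1a* and *Arid1b* were 79.0% and 76.5% G or C over 1001 bp, the highest of the 10 genes. The lowest was *Dpf3* with 55.2%, which was also the median of the 21938 protein-coding genes measured. All 10 promoters had a ratio of observed to expected CpG above the median of those genes, at 0.624 to 0.969 beside 0.571. The part of base composition in the peak height was not tested.

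*Ss18*, whose product is the subunit fused in synovial sarcoma, spans chr18:14624198-14682914 on the minus strand. Its promoter peak had a PBRM1 fold enrichment of 7.80, 7.55 and 6.27 and a BRG1 fold enrichment of 9.69, 7.31 and 8.89. The values overlapped, and the percentiles differed by -5.19 points (exact permutation test, two-sided p = 0.2). *Brd9*, the bromodomain subunit that defines noncanonical BAF, spans chr13:73937811-73960895 on the plus strand and is read divergently from *Trip13*, which has a role in meiosis and the spindle checkpoint. Its peak had a PBRM1 fold enrichment of 9.25, 7.1 and 7.54 and a BRG1 fold enrichment of 10.2, 12.5 and 10.7, and all BRG1 values were above all PBRM1 values. The peak covers the *Trip13* TSS as well, so the genes cannot be told apart there. An additional *Brd9* promoter site 12220 bp inside the gene had a PBRM1 peak in the pooled list alone.

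The BCL7 genes differed among themselves. *Bcl7b* (chr5:135168283-135181855, plus strand) had the highest of the 3, with a PBRM1 fold enrichment of 8.79, 7.61 and 8.00 and a BRG1 fold enrichment of 9.54, 8.77 and 9.46. Its summit lay 570 bp after the TSS, in intron 1, in both pooled lists. *Bcl7c* (chr7:127661456-127708933, minus strand) followed, with PBRM1 at 6.25, 5.88 and 4.85 and BRG1 at 5.91, 6.47 and 5.93, in a peak that also covers the start of the microRNA gene *Mir762*. *Bcl7a* (chr5:123343834-123374992, plus strand) had 3 separate peaks in the first kilobases of the gene, and which of them was strongest differed between the lists. The strongest peak of each list had a PBRM1 fold enrichment of 6.40, 4.83 and 3.83 and a BRG1 fold enrichment of 4.84, 4.52 and 5.18. The first of the 3, at the TSS, was found in all 6 replicates and also covers the start of the antisense gene *Gm15860*. At that site the PBRM1 fold enrichment was 6.40, 3.87 and 3.70 and the BRG1 fold enrichment 4.70, 4.52 and 4.08. For all 3 genes the PBRM1 and BRG1 fold enrichments overlapped. Over the 10 genes, every BRG1 fold enrichment exceeded every PBRM1 fold enrichment at *Dpf1*, *Dpf3* and *Brd9*, 3 of the 9 genes with a peak in all 6 replicates, and 40.7% of all such genes did the same.

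**Figure D2:**
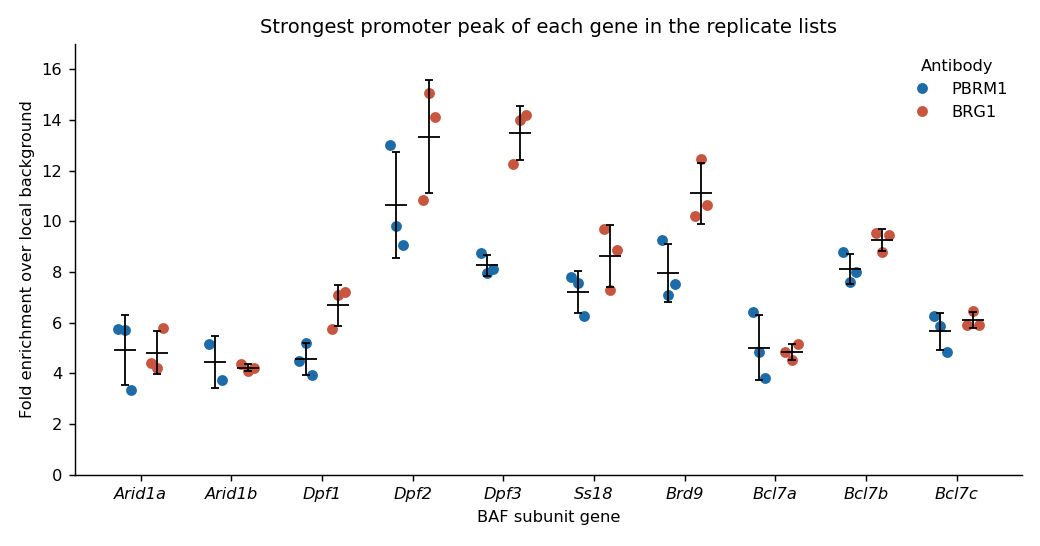
Fold enrichment over the local background of the strongest promoter peak of each gene in each replicate list (points; PBRM1 blue, BRG1 red), with the mean and SD of 3 replicates in black (n = 2 for *Arid1b* with PBRM1). *Dpf2* and *Dpf3* reach the highest values, 15.1 and 14.2 with BRG1, and only *Dpf1*, *Dpf3* and *Brd9* have all BRG1 points above all PBRM1 points.

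Ranked within their own lists, the promoter peaks of 4 of the 9 genes with a peak in all 6 replicates stood higher in every BRG1 list than in every PBRM1 list. They were *Dpf1*, *Dpf3*, *Brd9* and *Bcl7c*, and at the other 5 genes the lists overlapped. Of all 11388 genes, 40.0% had every BRG1 percentile above every PBRM1 percentile and 2.76% the reverse, which none of the 9 genes had, so the share of the BAF genes was near that of all genes. The BRG1 lists are the longer ones, and a percentile depends on the length of its list. With each list limited to its 20000 strongest peaks, only *Dpf1* and *Dpf3* kept every BRG1 value above every PBRM1 value, 2 of 9 genes beside 13.2% of the 10664 genes with a promoter peak in all 6 of these shortened lists. On that scale *Dpf1* stood at 43.3 ± 6.85 with PBRM1 and 63.1 ± 7.51 with BRG1, and *Dpf3* at 86.3 ± 6.66 and 98.2 ± 0.851 (SD, n = 3). The difference of the means then changed its sign at *Arid1a*, *Dpf2*, *Ss18*, *Bcl7a*, *Bcl7b* and *Bcl7c*.

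**Figure D3:**
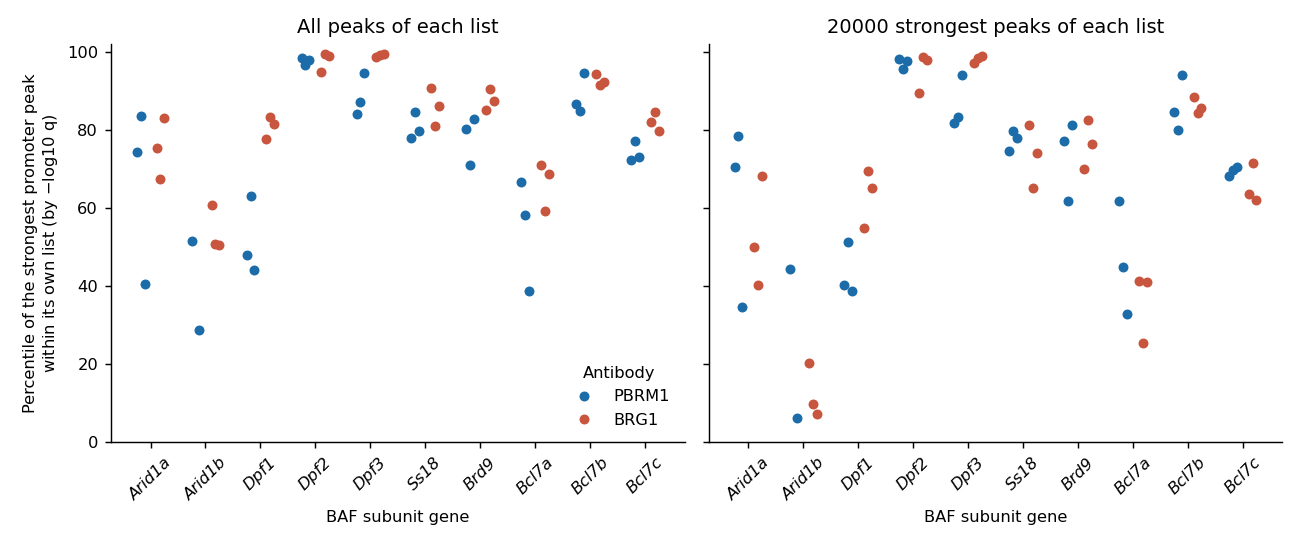
Percentile of the strongest promoter peak by −log10 q within its own list, for each gene and replicate (PBRM1 blue, BRG1 red), among all peaks of the list (left) and among its 20000 strongest (right). BRG1 points lie above PBRM1 points at *Dpf1* and *Dpf3* in both panels, and at *Brd9* and *Bcl7c* in the left panel alone.

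Outside promoters, gene-body peaks were counted where the summit lay inside one of the 10 genes and no TSS of any gene was within 2000 bp of the peak. The pooled lists held 34 such PBRM1 peaks and 57 such BRG1 peaks, and 13 and 32 of these had a −log10 q of 5 or more. With PBRM1, 6 of the 10 genes had at least 1, and with BRG1 5 of 10, beside 26.5% and 33.8% of all protein-coding genes. *Dpf1*, *Dpf2*, *Brd9* and *Bcl7b* had none in the pooled lists. These are the 4 shortest of the 10 genes, at 14.3, 16.5, 23.1 and 13.6 kb, and the others are 31.2 to 353 kb long. Per 100 kb of gene body the 10 genes held 3.74 PBRM1 and 6.26 BRG1 peaks, where all protein-coding genes together held 1.50 and 2.63. Without *Arid1b* the remaining 9 held 2.52 and 4.13.

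*Arid1b* held 20 of the 34 PBRM1 and 34 of the 57 BRG1 gene-body peaks, and *Dpf3*, the second-longest gene at 274 kb, held 7 and 13. The union of both lists gave 70 sites, of which 21 had a peak of both antibodies, 36 of BRG1 alone and 13 of PBRM1 alone. By the principal transcripts 63 sites lay in introns, 6 in exons and 1 beyond the end of the principal *Bcl7c* transcript, and 17 of the 42 *Arid1b* sites lay in its intron 4. Most were weak. Of the 70 sites, 27 had a peak in no single replicate and 24 in 1, and 4 had a peak in all 6. These 4 lay in *Arid1b*, with 3, and *Arid1a*, with 1. Thus 2 of the 10 genes had such a site, beside 3.22% of all protein-coding genes. That share was not matched for gene length, and the 2 genes are 353 and 77.8 kb long. Among the other SWI/SNF genes, *Pbrm1* of the 4 PBAF-specific and *Smarcb1* of the 11 core genes had such a site, and none of the 3 further BAF-class genes did.

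In the replicate lists the 10 genes held 10, 14 and 6 gene-body peaks with PBRM1 and 24, 23 and 14 with BRG1. PBRM1 replicate 2 and BRG1 replicate 3 thus had equal counts. The means were 10.0 ± 4.00 and 20.3 ± 5.51 (SD, n = 3), a difference of -10.3 (exact permutation test, two-sided p = 0.2). Per 10000 peaks of the list the counts were 4.35, 5.31 and 2.74 with PBRM1 and 5.91, 6.27 and 3.72 with BRG1, and the difference was smaller (exact permutation test, two-sided p = 0.4). Among the 20000 strongest peaks of each list the mean was 6 with both antibodies. The counts of BRG1 replicates 1 and 2 each include a peak in exon 12 of *Dpf1*. Peaks at that site in PBRM1 replicates 1 and 2, BRG1 replicate 3 and the pooled lists reached within 2000 bp of a *Dpf1* TSS. They were counted as promoter peaks instead.

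The strongest of these sites lay in intron 4 of *Arid1b*, 194779 bp after the principal TSS, where the pooled peaks span chr17:5189547-5190404. Its PBRM1 fold enrichment was 7.91, 11.3 and 7.09 in the 3 replicates. Its BRG1 fold enrichment was 10.2, 10.9 and 9.47. The values overlapped, with means of 8.77 ± 2.25 and 10.2 ± 0.723 (SD, n = 3). Its −log10 q was higher than that of the *Arid1b* promoter in all 5 replicates that had both, and in PBRM1 replicate 3 the intronic site was present without a promoter peak. In the pooled lists it reached 63.1 with PBRM1 and 86.5 with BRG1, where the promoter reached 12.9 and 16.6. The 201 bp at its summit were 71.6% G or C with 17 CG dinucleotides, and the observed to expected CpG ratio was 0.664. The medians over 53126 such windows at BRG1 peaks away from TSSs were 52.7% and 0.282.

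The other *Arid1b* sites found in all 6 replicates were weaker and had fewer CG dinucleotides. The site in intron 2, at chr17:5058193-5058748, had a PBRM1 fold enrichment of 5.42, 4.77 and 4.93 and a BRG1 fold enrichment of 5.56, 4.74 and 5.38. The other site in intron 4, at chr17:5150574-5151073, had 4.77, 4.47 and 6.52 with PBRM1 and 6.82, 5.40 and 5.65 with BRG1. At both the antibodies overlapped, and the observed to expected CpG ratios were 0.276 and 0.243. The remaining 39 *Arid1b* sites were found in at most 4 replicates. The tallest of them in fold enrichment, in intron 8 at chr17:5295727-5296107, had a BRG1 peak alone, at 7.08 in the pooled list and at 6.32 and 4.80 in replicates 1 and 2, and this site was named after its value was seen.

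At *Arid1a* the site in intron 1, 23731 bp after the principal TSS, spans chr4:133729533-133730218. Its PBRM1 fold enrichment was 5.50, 5.71 and 7.03 and its BRG1 fold enrichment 6.96, 6.51 and 9.02. Its −log10 q exceeded that of the *Arid1a* promoter in 3 of 6 replicates, which were PBRM1 replicate 3 and BRG1 replicates 1 and 2, by small margins in the latter. In the pooled lists it was below the promoter with PBRM1, at 28.1 against 33.4, and level with it with BRG1, at 45.5 against 44.7. A gene-body peak stronger than the promoter peak was thus found with PBRM1 at 1 of the 6 genes that had both kinds of pooled peak, *Arid1b*, and with BRG1 at 2 of 5, *Arid1b* and *Arid1a*. Over all genes with both kinds, the shares were 15.1% and 14.2%.

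**Figure D4:**
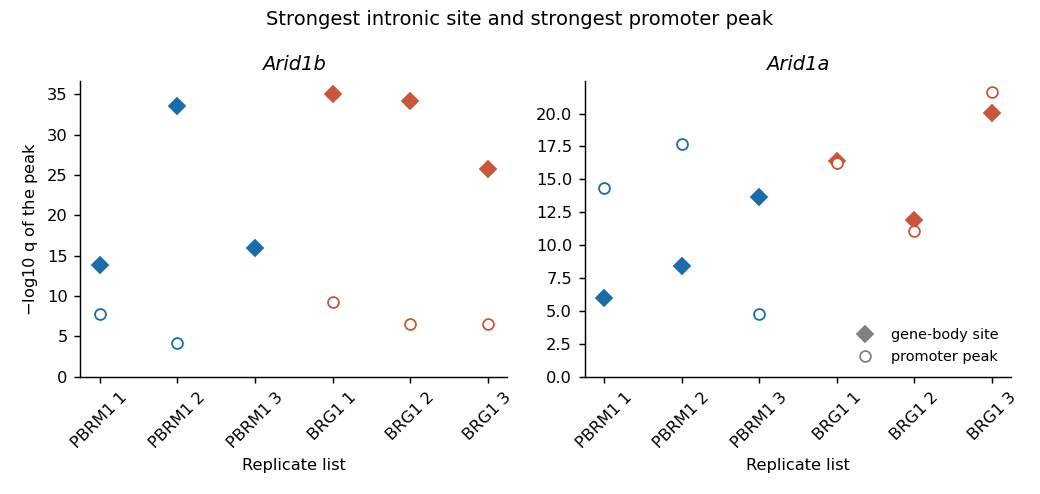
The −log10 q of the strongest intronic site (diamonds) and of the strongest promoter peak (open circles) of *Arid1b* and *Arid1a* in each replicate list (PBRM1 blue, BRG1 red; the vertical scales differ). The *Arid1b* intronic site is above the promoter in the 5 lists that have both (PBRM1 replicate 3 has no promoter peak), and the *Arid1a* site in 3 of 6.

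Of the weaker gene-body sites, the strongest *Dpf3* site lay in intron 8, 218959 bp after the TSS, with a pooled fold enrichment of 5.76 with PBRM1 and 6.57 with BRG1, and was found in 4 replicates. *Ss18* had its strongest in exon 4, with 3.32 and 5.19, found in 3 replicates. *Bcl7a* had 1 PBRM1 site, with 2.94, found in no single replicate. *Bcl7c* had 1 site of both antibodies, with 4.42 and 4.45, found in 2 replicates.

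A further pair of strong peaks lay inside these genes but near the start of another gene. At chr7:127691457-127691990, within the *Bcl7c* locus, the PBRM1 fold enrichment was 11.4, 11.0 and 8.54 and the BRG1 fold enrichment 10.7, 8.89 and 10.0. The peak was present in all 6 replicates, and its pooled fold enrichment of 12.3 with PBRM1 and 11.7 with BRG1 was above that of the *Bcl7c* promoter, at 5.80 and 6.15. It covers the TSS of the noncoding gene *Gm39090*, which runs in the opposite direction, so that a peak of *Bcl7c* and one of *Gm39090* cannot be told apart. In intron 4 of *Bcl7a*, at chr5:123364365-123365012, a peak with pooled fold enrichments of 6.62 and 6.83 lay 1460 bp from a TSS of *5830487J09Rik*. It was found in all replicates except PBRM1 replicate 2, with 5.85 and 5.22 with PBRM1 and 6.06, 4.89 and 6.10 with BRG1, and the strongest pooled *Bcl7a* promoter peaks had 5.09 and 5.33. In −log10 q the site was below the *Bcl7a* promoter in both pooled lists, at 21.2 against 22.2 with PBRM1 and 25.6 against 37.6 with BRG1.

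**Figure D5:**
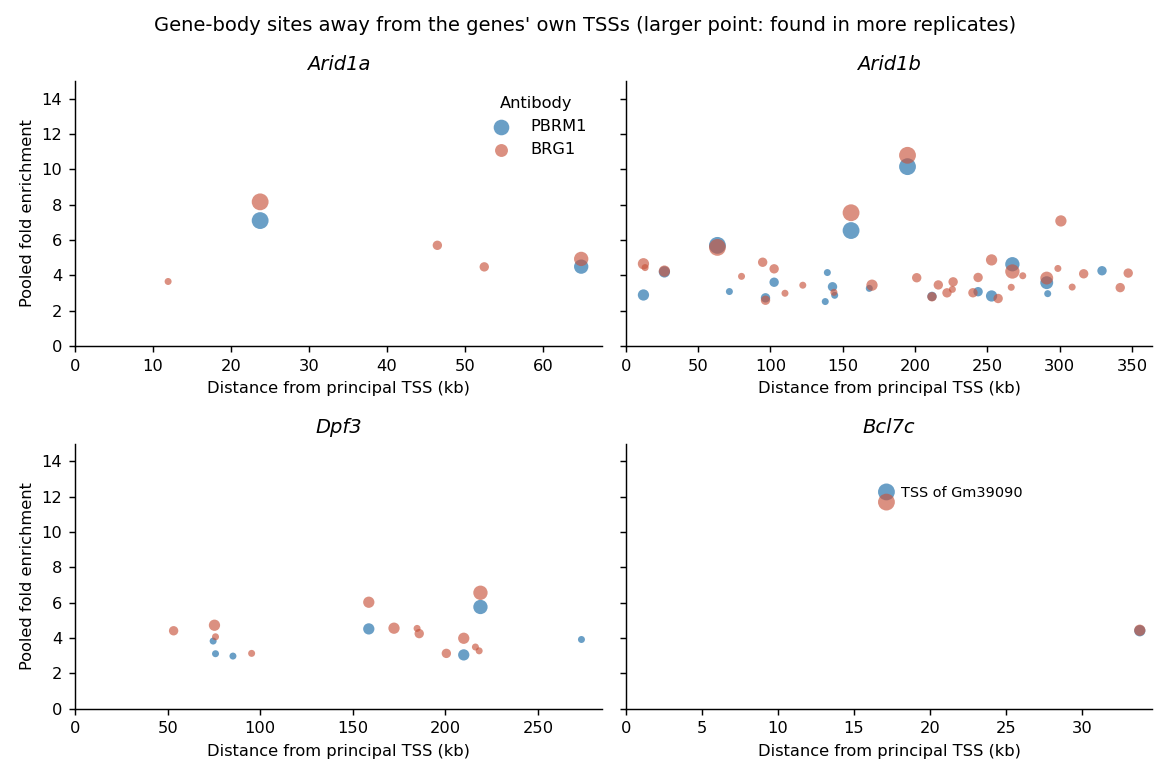
Pooled fold enrichment (PBRM1 blue, BRG1 red) of the sites inside *Arid1a*, *Arid1b*, *Dpf3* and *Bcl7c* that are away from the genes' own TSSs, against the distance from the principal TSS in kb, with larger points for sites found in more replicates. The sites with a point above 7 are the *Arid1b* sites at 156, 195 and 301 kb (the last with BRG1 alone), the *Arid1a* site at 23.7 kb and the site at the *Gm39090* TSS in *Bcl7c*.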

How the data were processed

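ChIC-Seq peaks of PBRM1 and BRG1 in D4 mUSCs were analysed at 10 genes, with 3 replicates per antibody grouped by the sample titles. According to the methods and processing notes, the authors trimmed reads with cutadapt, aligned them to GRCm38 with Bowtie2, removed duplicates and ran MACS 2.2.7.1 on every replicate and on the fragments of each antibody pooled. Per the file headers, the q-value cutoff was 0.05, the regional background 10000 bp and the control file absent. The deposited lists give for each peak a pileup signal (not used further), a fold enrichment (a ratio to the local background) and a −log10 q-value, as the authors' call wrote them. Depth was 8868777 to 16505239 fragments per replicate.

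Peaks were intersected with GENCODE M21 (minimum overlap 1 bp) in Python 3.11.15 (numpy 2.4.6, pandas 2.3.3), and GRCm38.p6 sequence was read with pysam 0.24.0. Antibodies were compared with a two-sided exact permutation test over replicate lists. The 10 genes, the comparison lists, the motifs and the tests were chosen with earlier results of these data known. All 10 genes are named, as are gene-body sites with a peak in both pooled lists and every replicate and otherwise the strongest site of a gene. Base composition and the sites near other TSSs were described after their values were seen. Peak assignment and the test were checked on simulated lists. Alternatives were stricter peaks, other promoter distances, the basic GENCODE set, the 20000 strongest peaks, the percentile of fold enrichment, a 50% overlap, a replicate block and leaving out each replicate. The IgG libraries were not analysed here.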

Additional observations from a re-analysis of the deposited data

How the results depend on the processing

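The counts of gene-body peaks outside promoters depended on the strength of the peaks. Where −log10 q had to reach 5, 13 PBRM1 and 32 BRG1 pooled peaks remained and 11 BRG1 peaks overlapped a PBRM1 peak, and with a fold enrichment of at least 4 these counts were 12, 28 and 10, by construction of the stricter limits. The number of genes with a promoter peak in all 6 replicates was then 7 and 6 instead of 9. A promoter distance of 1000 or 5000 bp, the basic GENCODE set and an overlap of 50% moved none of these counts by over 1.5 times. With the 20000 strongest peaks of each list, the BRG1 percentiles were wholly above the PBRM1 percentiles at 2 genes instead of 4, and the mean gene-body counts became equal. The percentile difference (PBRM1 minus BRG1) then turned to 8.40 at *Arid1a*, 1.68 at *Dpf2*, 3.96 at *Ss18*, 10.7 at *Bcl7a*, 0.0875 at *Bcl7b* and 3.81 at *Bcl7c*. The cause was not tested beyond the equal list length. With 1 replicate left out at a time, the difference at *Dpf2* ranged from -1.53 to 0.731 and turned without PBRM1 replicate 2, BRG1 replicate 2 or BRG1 replicate 3, and that at *Arid1a* ranged from -17.9 to 3.65 and turned without PBRM1 replicate 3. Over these omissions the difference in gene-body peaks ranged from -13.5 to -8.33, and the number of genes with a promoter peak in every remaining list from 9 to 10.

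The replicate numbers are shared by both antibodies, but no pairing of the samples was seen in the peaks. At 13093 peaks found in all 6 replicates, the deviations of same-numbered PBRM1 and BRG1 libraries from their antibody means correlated at -0.0400, -0.0108 and -0.0112. Such correlations cannot decide whether same-numbered libraries shared their cells. In a fit with the replicate block (exact sign-flip permutation test, smallest p 0.25), the gene-body difference of -10.3 had p = 0.25 and the promoter difference of -0.333 had p = 1, and at 5 genes each BRG1 percentile exceeded the same-numbered PBRM1 percentile. No comparison could pass 0.05 with 3 lists against 3, so a p above it says nothing about stability.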
